A study of Homo sapiens with 4 samples.

Results

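Ribosome biogenesis and nucleolar factors were followed as a named set of 49 genes, of 58736 features listed in each deposited table. The members were found by gene symbol in GENCODE 29 (GRCh38), and all 49 had a row. They were sorted into 7 roles: RNA polymerase I (6 genes), box C/D particles (4), H/ACA particles (4), nucleolar scaffold proteins with the helicase DDX21 (4), early small-subunit assembly (13), late small-subunit assembly (6) and large-subunit assembly (12).

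The libraries were RNA sequencing of the HEK293A line, human epithelial cells established from embryonic kidney. All wells were transfected with 1 µg of a plasmid for FEN1, which cuts flaps of DNA during replication and repair, and 48 h later with 500 pmol of DNA probes. The groups were a negative control (replicates 1 and 3) and the probe labelled NT1_hp2 (replicates 2 and 3), with RNA prepared after 72 h. The study asked how well a FEN1 system with mis-hairpin probes regulates genes, but neither the target of NT1_hp2 nor the control probe is given in the sources used here. A group without plasmid or probe was not analysed here, so both groups carry the transfection and the nuclease plasmid. The labels do not call the replicates separate cultures, so every p-value rests on library-to-library spread that may be technical. An exact permutation test of 2 libraries against 2 cannot go below p = 0.333, so single genes were tested in a fit across all features.

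Ribosomes are built in the nucleolus. RNA polymerase I copies the ribosomal DNA into a long precursor, box C/D and H/ACA small nucleolar particles guide its methylation and pseudouridylation, and assembly factors fold, cut and export the small and the large subunit. Many of these genes carry MYC binding sites of the E-box type close to their start, and growing cell lines express some of them at high levels.

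The values are FPKM, fragments scaled to exon length and library size, and they corresponded to 12506203 to 14908687 recovered reads per library. With 1 kilobase of exon, 3 reads equal 0.208 to 0.239 FPKM, a floor that covers counting error only. Of 9 markers listed for HEK293 cells, 6 were at 1 FPKM or more in all 4 libraries, among them VIM, KRT8 and NEFL, whereas PAX2, EPCAM and NEFM were below. The leukocyte genes PTPRC and CD3E and the globin gene HBB were at 0 in all 4 libraries. Of 3 fibroblast markers COL1A1 alone was above 1 FPKM (7.85 to 8.44), and no marker of macrophages, endothelium or liver reached 1 FPKM. On the first principal component the control libraries lay at −33.1 (replicate 1) and −16.3 (replicate 3), and the NT1_hp2 libraries at 27.5 and 21.9.

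Base composition, a promoter motif and shared exons accompany the results that follow. The central 90 bases of the coding sequence are shown for 6 members, with G and C in capitals (GENCODE 29 principal transcripts). Among the tested members, NHP2, UBTF and PES1 had the largest log2 decreases after leaving out RRS1 (second largest, no sequence shown). DDX21, DIMT1 and TAF1D had the largest log2 increases.
NHP2, lower: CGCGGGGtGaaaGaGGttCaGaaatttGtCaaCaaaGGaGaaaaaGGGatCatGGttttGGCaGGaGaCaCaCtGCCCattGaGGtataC
UBTF, lower: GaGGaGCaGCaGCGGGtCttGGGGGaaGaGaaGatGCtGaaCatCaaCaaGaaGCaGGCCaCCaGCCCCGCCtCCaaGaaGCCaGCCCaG
PES1, lower: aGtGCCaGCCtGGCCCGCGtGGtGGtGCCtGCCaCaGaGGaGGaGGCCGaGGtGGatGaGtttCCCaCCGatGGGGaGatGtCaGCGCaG
DDX21, higher: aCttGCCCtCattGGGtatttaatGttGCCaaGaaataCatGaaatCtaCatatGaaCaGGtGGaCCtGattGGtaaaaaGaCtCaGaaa
DIMT1, higher: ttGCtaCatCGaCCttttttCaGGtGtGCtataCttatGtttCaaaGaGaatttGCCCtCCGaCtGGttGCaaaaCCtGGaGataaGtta
TAF1D, higher: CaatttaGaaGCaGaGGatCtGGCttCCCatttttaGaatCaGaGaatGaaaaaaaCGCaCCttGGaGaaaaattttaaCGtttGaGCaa
The stretches of UBTF and PES1 were 61.1% and 66.7% G and C and that of NHP2 46.7%, against 36.7% in DDX21 and 35.6% in TAF1D, with DIMT1 little above. Over the whole coding sequence the shares were 57.1%, 54.6% and 56.7% for NHP2, UBTF and PES1, and 44.7%, 44.4% and 36.6% for DDX21, DIMT1 and TAF1D.

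The second feature is the E-box CACGTG, a palindrome that reads alike on both strands and is bound by MYC and MAX. RefSeq promoter windows (GRCh38.p14, 250 bases before to 50 after the start) were matched for 43 members, and 19 of the 43 (44.2%) held it. The share was 8.77% of the 27305 genes with a window and 12.6% of the 10091 tested genes that were matched. By role it was found in 0 of 6 RNA polymerase I genes and in 33.3% to 66.7% of the matched genes of each other role. For the 3 members that hold it and passed the test described below, the 30 bases around it are given with the E-box in capitals.
DDX21, chr10:68956604-68956633, plus strand: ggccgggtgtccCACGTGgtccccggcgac
WDR43, chr2:28894658-28894687, plus strand: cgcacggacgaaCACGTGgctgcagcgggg
PES1, chr22:30591880-30591909, minus strand: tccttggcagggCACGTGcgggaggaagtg
It began 31 bases before the start in DDX21, at base 4 after it in WDR43 and at base 14 in PES1. These are letter matches and not measured binding.

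The third is the sharing of exon bases with neighbouring genes. Over the whole table, 294 of 297 features (99.0%) whose exon bases all lie in exons of same-strand genes, at least one with a mean of 10 FPKM or more, were at 0 in all 4 libraries, and so were 133 of 133 lying within exons of such genes on the opposite strand. Reads in such shared bases were thus all but missing from these values on either strand, while the length behind the FPKM includes those bases. Of the 49 members, 19 shared no exon base with another gene, 18 shared up to 15% and 12 shared more, so levels of those 12 cannot be set beside those of other genes.

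Relative to library size, the members did not all differ in the same direction between NT1_hp2 and the control. Of 47 members tested, 4 rose (DDX21, DIMT1, TAF1D and WDR43) and 6 fell (NHP2, RRS1, UBTF, PES1, NOP56 and NCL) by limma-trend on log2(FPKM + 1) with Benjamini-Hochberg adjusted p under 0.05. Over all 16362 tested features, 5.00% rose and 8.92% fell (13.9% in all), against 8.51% and 12.8% of the members. Among the 12149 protein-coding genes tested, the shares were 5.04%, 10.8% and 15.9%. The shares of the members were not tested against these. The changes were modest, between 0.486 and 1.42 times the control mean. The median log2 fold change of the members was −0.10, against −0.01 over all tested features. Of the 47 members 32 were negative, and negative counts over all genes are given with base composition below. The 2 libraries of a group lay wholly above or below the other 2 for 33 members (12 higher and 21 lower in NT1_hp2, 70.2%), where 32.0% of all tested features were higher without overlap, 34.8% lower and 66.8% either. The share of separated members lay near the background. In bulk RNA, fewer cells that express a gene and less RNA per cell cannot be told apart.

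The direction split of the members followed the scaling of the libraries. When libraries were scaled to the sum of their deposited values, 10 members were higher and 4 lower (20.2% and 5.59% of all features, 25.8% together), and the median of all tested features moved from −0.01 to 0.16 with that of the members from −0.10 to 0.09. With upper-quartile or total-read scaling it was 5 higher and 6 lower in each. Of all 16362 features, 1484 were then higher and 1428 lower with upper-quartile scaling, and 1531 and 1327 with total-read scaling. After removal of smooth trends with transcript length and GC content only DDX21 and UBTF passed, where 0.758% of genes were higher and 1.13% lower (1.88% together). Limma-voom on the recovered reads called 7 members higher and 15 lower, beside 14.4% and 19.9% of all features (34.3% together), and a fit on protein-coding genes alone 5 and 15, beside 14.6% and 24.2% (38.8% together). Without any 1 of the 4 libraries 0 members passed in limma-trend (12 to 21 had an unadjusted p under 0.05), in fits where 0 or 1 of all features passed.

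**Figure D1:**
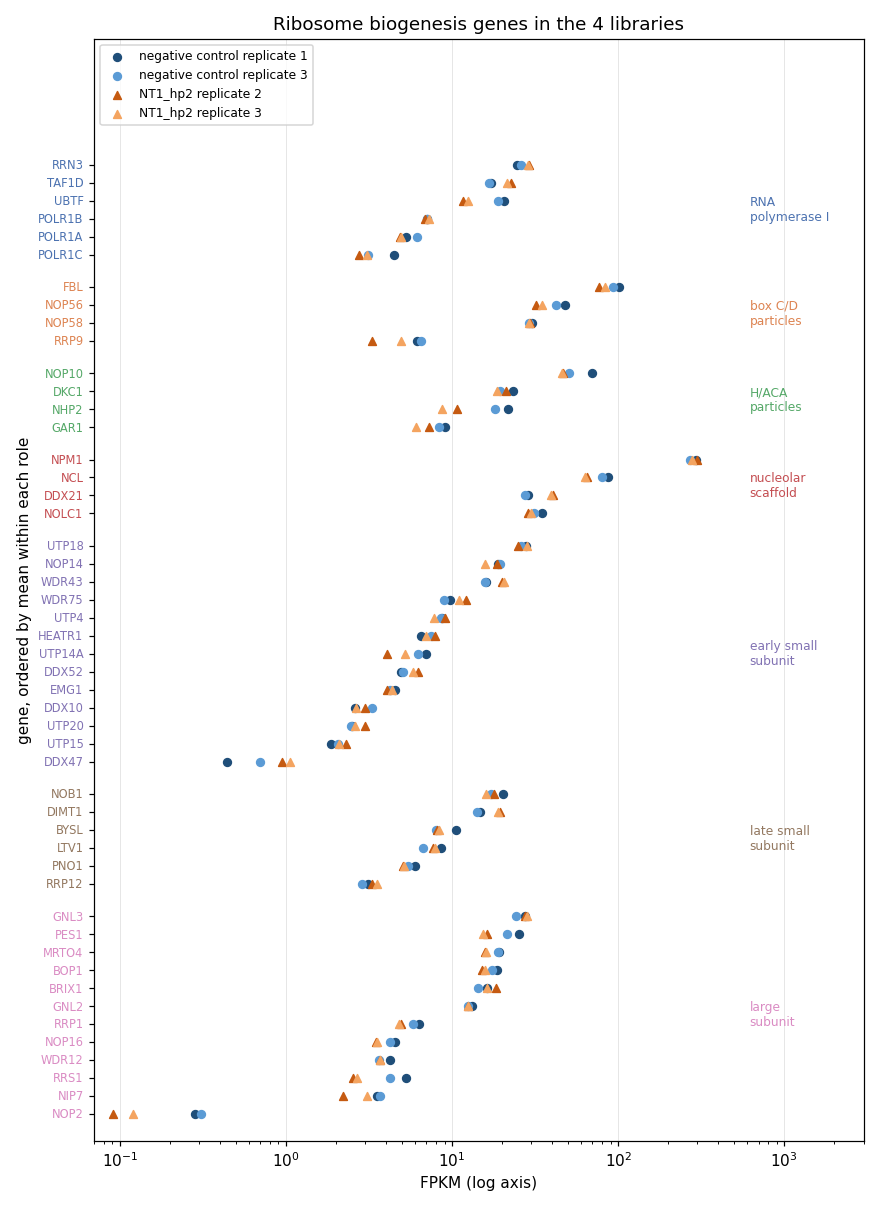
FPKM of the 49 genes (log axis) in each library, grouped by role and ordered by the mean within a role. Circles are the 2 negative control libraries and triangles the 2 NT1_hp2 libraries, with no error bars because every library is drawn. NPM1 lies between 270 and 298 FPKM in all 4, and NOP2 and DDX47 lie below or close to 1 FPKM, on a scale that counts their shared exon bases in the length but not their reads.

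**Figure D2:**
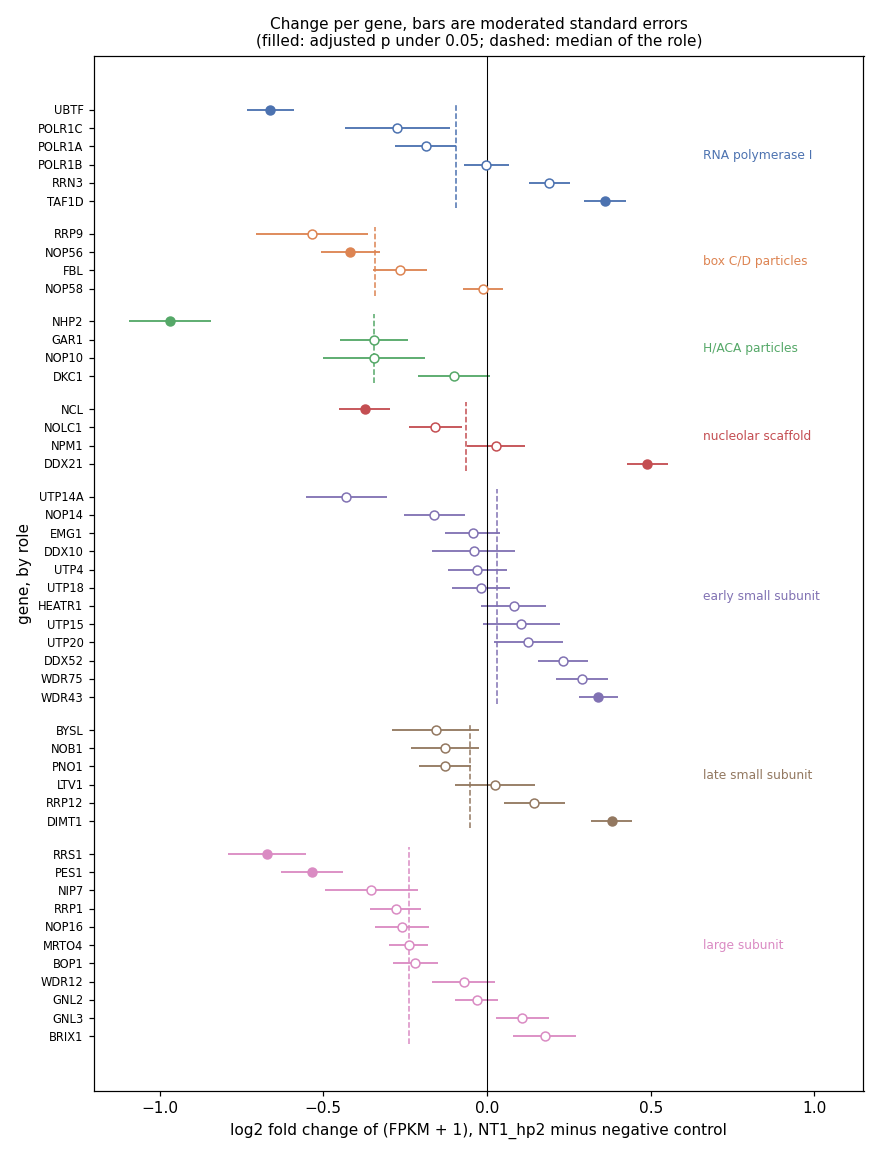
Log2 fold change of FPKM + 1 for the 47 tested genes, NT1_hp2 minus negative control, with moderated standard errors. Filled points have an adjusted p under 0.05, and dashed lines mark the role medians, which run from −0.35 in H/ACA particles to 0.03 in early small-subunit assembly.

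RNA polymerase I genes went in both directions, with 1 of 6 higher, 1 lower and a median of −0.10. Over all tested features 5.00% rose and 8.92% fell, the background for the counts of this and the following roles. UBTF encodes the upstream binding factor that holds ribosomal DNA open and recruits the polymerase (ENSG00000108312, chromosome 17, 44205033 to 44221626). It was at 20.4 and 19.0 FPKM in the control libraries and at 11.7 and 12.4 in NT1_hp2. Both NT1_hp2 values lay below both control values, and their mean FPKM was 0.613 times the control mean. The log2(FPKM + 1) difference was −0.66 (SE 0.0719, adjusted p = 0.0340 in limma-trend). TAF1D, a subunit of the promoter selectivity factor SL1, rose from 17.2 and 16.7 FPKM to 22.6 and 21.5. Its log2 fold change was 0.36 (SE 0.0636, limma-trend adjusted p = 0.0378), and it was 0.11 (limma-trend adjusted p = 0.313) once length and GC trends were removed. TAF1D shares 17.3% of its exon bases with 12 other genes.

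The initiation factor gene RRN3 (TIF-IA), which links growth signals to the polymerase, was at 24.5 and 25.8 FPKM in the control and 29.1 and 28.6 in NT1_hp2. The groups did not overlap, but the difference of 0.19 did not pass in limma-trend (adjusted p = 0.0996). RRN3 has 3 annotated pseudogene copies, whose reads came to 15.1% of its own, and how reads were split among these copies is uncertain. Among the subunits of the enzyme, POLR1B, which forms part of the active centre, was at 7.09 and 7.07 against 6.90 and 7.22 FPKM, a log2 difference of −0.0031 (SE 0.0688). The largest subunit POLR1A (−0.19) and POLR1C (−0.27), which RNA polymerase III also uses, did not pass.

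Box C/D particle genes had a median of −0.34, with 0 of 4 higher and 1 lower. NOP56, a core scaffold protein of the particle, was at 48.0 and 42.4 FPKM in the control and 32.1 and 35.0 in NT1_hp2. The groups were apart, and the fall was −0.42 (SE 0.0899, limma-trend adjusted p = 0.0468), or −0.35 without passing after the correction (limma-trend adjusted p = 0.0720). Its partner NOP58 was at 30.1 and 28.9 FPKM against 29.3 and 29.2, a log2 difference of −0.01 (SE 0.0613). FBL encodes fibrillarin, the methyltransferase of the particle, and was the most abundant of the group, at 101 and 92.9 FPKM in the control and 77.2 and 83.6 in NT1_hp2. Its difference of −0.26 did not pass (limma-trend adjusted p = 0.0892), and it was −0.06 after the length and GC correction. RRP9, a U3-specific protein, was at 6.16 and 6.46 against 3.28 and 4.95 FPKM, the largest difference of the group at −0.53 (SE 0.170) but without passing (limma-trend adjusted p = 0.0941), on 73 to 140 reads per library.

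H/ACA particle genes also had a negative median (−0.35), with 0 of 4 higher and 1 lower. NHP2, a small RNA-binding core protein of these particles and of telomerase (ENSG00000145912, chromosome 5, 178149460 to 178153967), showed the largest change of all 47 tested members. It went from 21.6 and 18.2 FPKM to 10.6 and 8.72, or 469 and 346 reads to 227 and 187. The mean FPKM was 0.486 times the control mean, and the log2(FPKM + 1) difference was −0.97 (SE 0.125, limma-trend adjusted p = 0.0340). Corrected for length and GC it was −0.71 (limma-trend adjusted p = 0.0553). NHP2 shares 27.4% of its exon bases with RMND5B on the opposite strand.

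The other H/ACA genes did not pass. NOP10, which encodes a very small core protein, was the most abundant, at 69.3 and 50.7 FPKM in the control and 46.8 and 46.2 in NT1_hp2. Control replicate 1 stood well above the other 3 libraries there, and the difference was −0.35 (SE 0.155, limma-trend adjusted p = 0.180), or −0.12 without that library. GAR1 was at −0.35 (SE 0.103). DKC1, the pseudouridine synthase dyskerin, overlapped between groups at 23.2 and 19.5 against 21.0 and 18.6 FPKM (−0.10, SE 0.110).

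Of the abundant nucleolar proteins, 1 rose and 1 fell. DDX21, an RNA helicase that binds ribosomal DNA and small nucleolar RNAs (ENSG00000165732, chromosome 10, 68956128 to 68985073), rose from 28.7 and 27.5 FPKM to 40.5 and 39.2. Replicates differed far less than groups, and the increase of 0.49 in log2 (SE 0.0638, limma-trend adjusted p = 0.0340) was the largest among the 47 tested members. It also passed after the length and GC correction, at 0.37 (limma-trend adjusted p = 0.0478). NCL, nucleolin, fell from 87.3 and 79.5 FPKM to 65.3 and 62.9. Its log2 fold change was −0.37 (SE 0.0778, limma-trend adjusted p = 0.0444) and −0.40 after the correction (limma-trend adjusted p = 0.0532).

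NPM1, nucleophosmin, was the most abundant member and held rank 79 by mean FPKM among the 16362 tested features. It was at 295 and 270 FPKM in the control and 298 and 277 in NT1_hp2, so the groups overlapped (0.03, SE 0.0884). Its 45 annotated pseudogenes held 2.16% as many reads as the gene. NOLC1, a chaperone of small nucleolar particles, was at −0.16 (SE 0.0803) without passing.

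Early small-subunit assembly had the highest median of the 7 roles (0.03), with 6 of 12 tested genes positive, 1 higher and 0 lower by the test. WDR43, a subunit of the complex that joins transcription of the precursor to its processing, rose from 16.0 and 15.7 FPKM to 20.02 and 20.6. Its log2 fold change was 0.34 (SE 0.0600, limma-trend adjusted p = 0.0378), and 0.22 after the correction (limma-trend adjusted p = 0.0921). Other subunits of that complex did not pass, with WDR75 at 0.29, UTP15 at 0.10, HEATR1 at 0.08 and UTP4 at −0.03. WDR75 was at 9.65 and 8.89 FPKM against 12.05 and 11.1, apart between groups, and passed under 7 of 16 alternatives.

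The remaining genes of early small-subunit assembly ranged from −0.43 to 0.23. UTP14A, a cofactor of the helicase that releases U3, was lowest, at 6.92 and 6.19 FPKM in the control and 4.07 and 5.19 in NT1_hp2 (SE 0.124, limma-trend adjusted p = 0.0769). UTP18 was the most abundant of this role and the one that differed least, at 28.1 and 25.9 against 24.9 and 28.3 FPKM (−0.02, SE 0.0893). The helicase genes DDX52 and DDX10 were at 0.23 and −0.04, and the processome protein genes UTP20 and NOP14 at 0.13 and −0.16. EMG1, a methyltransferase for small-subunit RNA, was at −0.04 and shares 53.1% of its exon bases, mostly with LPCAT3 on the opposite strand.

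DDX47 was not tested, because only 1 library reached 1 FPKM. It held 32 and 44 reads in the control and 67 and 76 in NT1_hp2, and 36.5% of its exon bases are shared with APOLD1, a gene on the same strand at 30.6 to 36.6 FPKM.

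Late small-subunit assembly showed 1 of 6 genes higher and 0 lower, with a median of −0.05. DIMT1, which dimethylates adjacent adenosines near the end of small-subunit RNA (ENSG00000086189, chromosome 5, 62387254 to 62403939), rose from 14.8 and 14.1 FPKM to 19.5 and 18.8. All its NT1_hp2 values exceeded the control, and the log2 fold change was 0.38 (SE 0.0635, limma-trend adjusted p = 0.0359), or 0.22 after the correction (limma-trend adjusted p = 0.0865). NOB1, the endonuclease that makes the final cut of small-subunit RNA, was at 20.1 and 17.1 against 17.8 and 16.0 FPKM and changed sign with the correction, from −0.13 to 0.08, without passing in either. LTV1, a factor of nuclear export of the subunit, differed least, at 8.61 and 6.68 against 7.63 and 7.86 FPKM (0.03, SE 0.122). BYSL, PNO1 and RRP12 were at −0.16, −0.13 and 0.14 and did not pass.

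Large-subunit assembly had 9 of 11 tested genes negative, 0 higher and 2 lower, with a median of −0.24. The median G and C of these 11 transcripts was 54.1%. Of all 7065 tested genes at 50% or more, 5408 were negative, 1.25% rose and 17.9% fell. The role was not tested against these. PES1, the core of the PeBoW complex of large-subunit RNA processing (ENSG00000100029, chromosome 22, 30576625 to 30607083), fell from 25.4 and 21.5 FPKM to 16.3 and 15.4. The mean FPKM was 0.675 times the control mean, and the log2(FPKM + 1) difference was −0.53 (SE 0.0954, limma-trend adjusted p = 0.0383). With length and GC trends removed PES1 was at −0.28 and did not pass (limma-trend adjusted p = 0.0927). The other PeBoW genes did not pass, and BOP1 was at −0.22 and WDR12 at −0.07. BOP1 went to 0.13 after the length and GC correction, again without passing.

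RRS1, which takes part in large-subunit assembly, fell from 5.29 and 4.25 FPKM to 2.53 and 2.68. It rested on 61 to 130 reads per library, at −0.67 in log2 (SE 0.118, limma-trend adjusted p = 0.0378). RRS1 was at −0.43 with both trends removed and did not pass (limma-trend adjusted p = 0.0725). MRTO4, a placeholder for the ribosomal stalk protein, was at 19.1 and 18.8 against 15.7 and 16.1 FPKM. The groups were apart and the spread within each was small, yet −0.24 did not pass (limma-trend adjusted p = 0.0593). RRP1 (−0.28), NOP16 (−0.26) and NIP7 (−0.35) were likewise lower in both NT1_hp2 libraries without passing.

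The GTPase genes GNL3, which encodes nucleostemin, and GNL2 were at 0.11 and −0.03, and BRIX1 at 0.18. GNL3 was the most abundant gene of large-subunit assembly, at 27.4 and 24.3 against 27.4 and 28.3 FPKM. GNL2 differed least, at 13.2 and 12.4 against 12.5 and 12.5 FPKM. NOP2, a cytosine methyltransferase of large-subunit RNA, was below 1 FPKM in every library and was not tested. It held 19 and 18 reads in the control and 6 and 8 in NT1_hp2, and 54.4% of its exon bases are shared with AC006064.6, a same-strand gene that was at 0 in all 4 libraries.

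The direction of a member's difference went with the base composition of its transcript. The 4 genes that rose had 36.5% to 41.1% G and C in their longest transcript, and the 6 that fell 47.2% to 58.2%, with no overlap. Of the 16 tested members under 42% G and C, 4 rose and 0 fell, with a median of 0.14. Of the 14 between 42% and 50%, 0 rose and 1 fell (median −0.13), and of the 17 at 50% or more, 0 rose and 5 fell (median −0.26). The same order held over all tested genes with a sequence. Under 42%, 11.9% of 4254 genes rose and 0.964% fell, and at 50% or more, 1.25% of 7065 rose and 17.9% fell. Between 42% and 50%, 4.47% of 5031 rose and 3.08% fell, with a median of 0.05 where that of the members was −0.13. From the lowest to the highest G and C, 4 of 16, 12 of 14 and 16 of 17 members were negative. Over all tested genes it was 820 of 4254, 2092 of 5031 and 5408 of 7065. Across the 47 members Pearson's r of log2 fold change with G and C was −0.70 (Spearman's rho −0.76), and across 16350 genes −0.47 (rho −0.56). These are descriptions over genes that share the same 4 libraries.

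**Figure D3:**
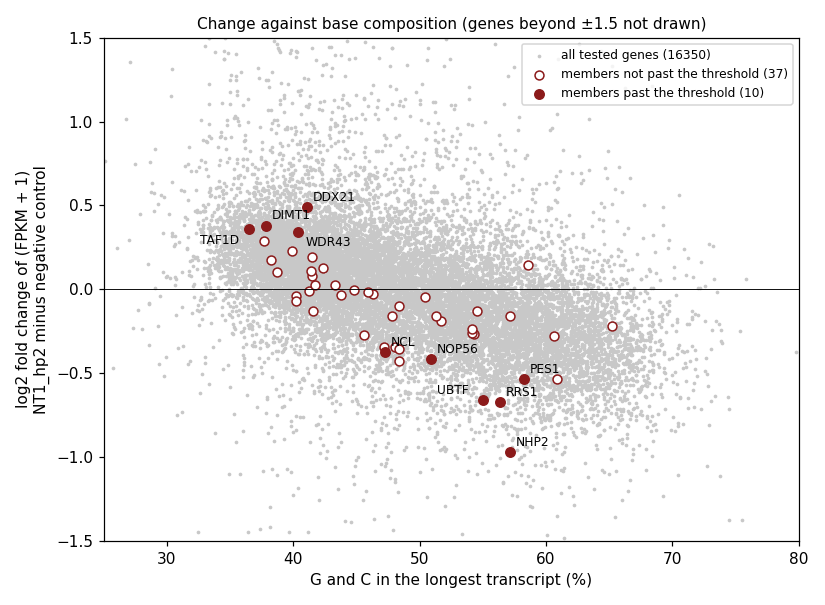
Log2 fold change of FPKM + 1 (NT1_hp2 minus negative control) against the percent of G and C in the longest transcript. Grey points are the 16350 tested genes with a sequence, open circles the 37 members that did not pass and filled circles the 10 that did, of which the 4 that rose all lie left of the 6 that fell.

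Length went with the differences less closely. Pearson's r of log2 fold change with log10 exon length was 0.40 over the members and −0.06 over all tested genes. Spearman's rho with length was 0.35 and 0.09, so the sign over all tested genes depended on the measure. With the length trend alone removed, all 10 members that passed kept their call and 1 more, WDR75, was higher. With length and GC trends removed together, the role medians were −0.36 for H/ACA particles, −0.16 for box C/D particles, −0.12 for RNA polymerase I, −0.07 for the nucleolar scaffold, −0.07 for large-subunit assembly, −0.04 for early and 0.09 for late small-subunit assembly. The gap between large-subunit and early small-subunit assembly in the deposited values (−0.24 against 0.03) was thus smaller (−0.07 against −0.04). That to late small-subunit assembly changed little, from −0.24 against −0.05 to −0.07 against 0.09. The H/ACA median stayed lowest after this correction. In the deposited values without control replicate 1 it was −0.21, above box C/D particles (−0.27) and large-subunit assembly (−0.22). No test between roles was made.

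**Figure D4:**
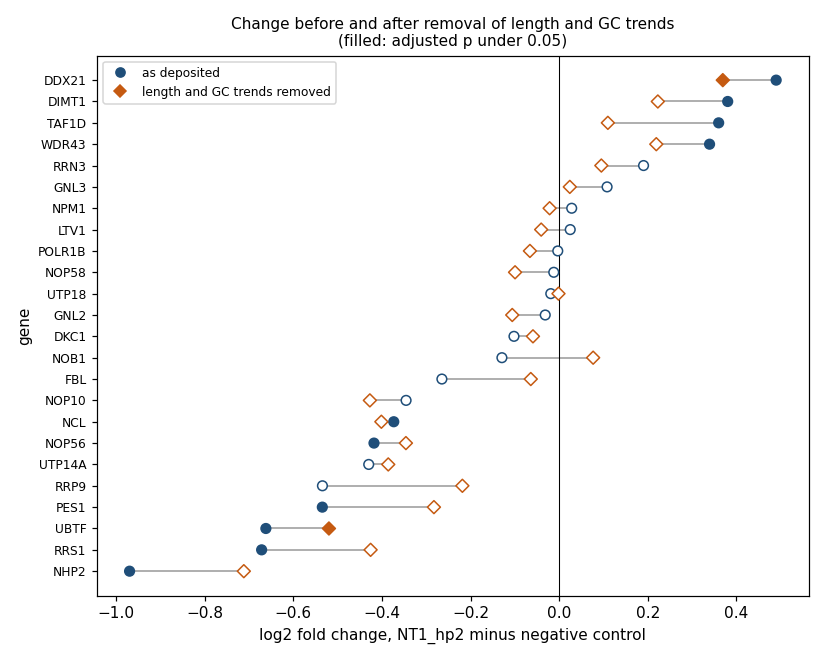
Log2 fold change as deposited (circles) and after removal of smooth trends with length and GC content (diamonds), with filled symbols for an adjusted p under 0.05. Only members that passed are drawn, with the most abundant, the most and the least different tested gene of each role. DDX21 and UBTF are filled in both, and NHP2 keeps the lowest value in both (−0.97 and −0.71).

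Replicates differed in a way that touches these values. Negative control replicate 1 was above replicate 3 for 38 of 47 members (80.9%), against 56.7% of all tested features. The median absolute gap between control libraries was 0.11 on the log2 scale, that between NT1_hp2 libraries 0.08, and the median absolute group difference 0.19. Without control replicate 1 the members' median was −0.02, and without control replicate 3 it was −0.15. The part of that library in the group differences is seen in these values and was not otherwise tested.

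Members with and without an E-box were set side by side, and the difference between them was not tested. Of 18 tested members with CACGTG in the window, 2 rose and 1 fell, with a median of −0.14 and a range of −0.53 to 0.49. Of 23 tested without it, 2 rose and 4 fell, with a median of −0.07 and a range of −0.97 to 0.38. Over all tested features 5.00% rose and 8.92% fell. The MYC mRNA, whose protein binds this motif, was at 8.19 and 7.32 FPKM in the control and 5.80 and 6.74 in NT1_hp2, a difference of −0.27 that did not pass (limma-trend adjusted p = 0.125). Among MYC antagonists MXI1 rose from 19.1 and 19.1 FPKM to 28.2 and 26.9, MXD1 rose from 4.84 and 4.85 to 7.02 and 6.48, and MXD4 fell from 22.4 and 19.1 to 14.2 and 14.9. Their limma-trend adjusted p-values were 0.0340, 0.0409 and 0.0416. Corrected for length and GC, MXI1 passed at 0.45 (limma-trend adjusted p = 0.0389), while MXD1 at 0.30 and MXD4 at −0.28 did not (0.0777 and 0.0812). MXD3 (−0.52) and MNT (−0.31) did not pass in the deposited values (limma-trend adjusted p = 0.0985 and 0.0559).

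Another 102 genes of the same pathway, listed by role and not among the 49, gave 2 higher and 21 lower of 101 tested, with a median of −0.12. Beside the 5.00% and 8.92% of all tested features, that is 1.98% and 20.8%. By role, 0 rose and 1 of 10 other RNA polymerase I genes fell, 0 rose and 3 of 9 snoRNP assembly genes fell, 1 of 40 small-subunit genes rose and 7 fell, and 1 of 42 large-subunit genes rose and 10 fell. ABT1, a small-subunit factor, fell from 16.3 and 14.7 FPKM to 9.70 and 9.84, and the large-subunit genes DDX54, WDR18 and EBNA1BP2 fell by 0.48, 0.65 and 0.49 on the log2 scale. The 2 that rose were the kinase gene RIOK3, from 12.4 and 13.3 FPKM to 18.3 and 16.4, and CEBPZ, from 13.2 and 13.3 to 17.0 and 16.2. After the length and GC correction 0 of the 101 were higher and 1 was lower.

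Small nucleolar RNA genes inside the members gave few values. GENCODE 29 places 31 of them on the same strand within 7 member genes, among them TAF1D, NOP56, NOP58, NCL and GNL3. All 13 that lie wholly in annotated host exons were at 0 in the 4 libraries, as were 4 of 5 that share some bases. The 13 that share no exon base had 0 to 25 reads per library, and 8 of them reached 1 FPKM in at least 2 libraries. These were SNORD6 in TAF1D, SNORD11 in NOP58, SNORD20 and SNORA75 in NCL, SNORD53B in WDR43, and SNORD19, SNORD69 and RF00569 in GNL3. Values this low do not show whether a snoRNA changed with its host.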

How the data were processed

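RNA of 4 HEK293A libraries was prepared with the NEBNext Ultra kit from 1 µg of RNA, per the labels' protocols. The authors deposited 1 table per library with FPKM for 58736 Ensembl genes; the unit was read from the values and the build, GRCh38.p12, from the submitters' processing notes, while no aligner or counter is named (not given in the sources used here). FPKM times GENCODE 29 exon length gave whole reads (within 0.01 read), from which library depth was taken; the means of low genes are limited by counting.

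Values were compared as log2(FPKM + 1) in limma-trend 3.58.1 (R 4.3.3) with robust shrinkage, for features at 1 FPKM or more in at least 2 libraries, with Benjamini-Hochberg adjustment over all tested features and a threshold of 0.05. Fold changes on this scale understate those of low genes. Smooth trends with log length and GC content were removed per library with mgcv 1.9.3 in 1 alternative. The 16 alternatives covered scaling, filter, pseudocount, shrinkage, limma-voom on recovered reads, gene type, trends, and leaving out each library. The fit was tested on simulated data.

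The members and gene lists were chosen with earlier results of these data known. Members that passed were given in full, with the most abundant, the most and the least different of each role; of other pathway genes, up to 4 in each direction by p-value, and MYC. All other members were given by their differences. Promoter letters are from RefSeq. The replicate libraries of a group were not identical. 1 marker gene is not reported here.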

Additional observations from a re-analysis of the deposited data

How the results depend on the processing

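No paired analysis was possible because the groups share only replicate number 3. All 10 members that passed kept their direction under all 16 alternatives. They kept their side of the threshold under median-of-ratios, upper-quartile and total-read scaling, a pseudocount of 0.1, the filter on all 4 libraries, limma-voom, protein-coding genes only and the length trend. NOP56 was lost without robust shrinkage, and NCL and NOP56 when scaling to the sum of deposited values. The cause was not tested for any shift below.

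With no filter, 36608 features were tested and 0 members, 0 other pathway genes and 0 features passed in limma-trend, with 6778 features and 21 members at an unadjusted p under 0.05. With length and GC trends removed 124 features were higher and 184 lower, 1 member higher and 1 lower, and 0 other pathway genes higher and 1 lower. Scaling to the sum of deposited values gave 3299 higher and 915 lower features, 10 and 4 members, and 22 and 10 other pathway genes. Limma-voom gave 2361 and 3256 features, 7 and 15 members, and 9 and 38 other pathway genes, and a fit on protein-coding genes 1778 and 2938, 5 and 15, and 9 and 39. Requiring 1 FPKM in all 4 libraries gave 1374 and 2273 features and 6 other pathway genes higher. Upper-quartile scaling gave 1484 features higher and 1428 lower, total-read scaling 1531 and 1327, and in each 8 other pathway genes were higher, against 6 with median-of-ratios scaling and 7 with the length trend removed. Without 1 library, 0 to 1 features were lower and 0 to 0 higher, and 0 members and 0 other pathway genes passed.

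Medians of the members moved as well. Under upper-quartile, sum and total-read scaling they were −0.034, 0.093 and −0.028 over all members, −0.034, 0.083 and −0.029 in RNA polymerase I, −0.27, −0.14 and −0.27 in box C/D particles, 0.10, 0.21 and 0.10 in early small-subunit assembly, and −0.17, −0.042 and −0.17 in large-subunit assembly. Under sum scaling they were −0.15 in H/ACA particles, 0.14 in the nucleolar scaffold and 0.14 in late small-subunit assembly. With the length trend removed they were −0.026 over all members, −0.25 in box C/D particles, 0.023 in the scaffold and −0.13 in large-subunit assembly, and with GC removed too −0.16 in box C/D particles, −0.043 in early small-subunit and −0.069 in large-subunit assembly. Leaving out 1 library gave −0.15 to −0.017 over all members, −0.11 to −0.034 in RNA polymerase I, −0.41 to −0.25 in box C/D, −0.48 to −0.21 in H/ACA, −0.14 to 0.01 in the scaffold, 0.017 to 0.11 in early small-subunit, −0.16 to 0.11 in late small-subunit and −0.27 to −0.19 in large-subunit assembly.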
